A study of Mus musculus with 6 samples.

Results

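The amino acid transporter genes of the solute carrier superfamily were taken as the protein-coding genes whose symbol places them in the SLC1, SLC3, SLC6, SLC7, SLC36, SLC38 or SLC43 family. The rule used names only and no measured value, and found 61 genes among the 55487 genes of the deposited count tables. RNA sequencing covered 6 libraries whose titles give ovarian granulosa cells, which enclose and feed the oocyte, all of WT genotype. There were 3 control libraries, treated with PBS, and 3 treated with cetylpyridinium chloride (CPC), an antiseptic of the quaternary ammonium class. Neither the dose nor the length and route of exposure nor the age of the mice is stated by the sources used here. The same records also name SKOV3, a human ovarian cancer line, and a GATA4 transfection, whereas the count tables hold mouse genes placed on GRCm38.p6. Since the labels do not tell whether replicates are separate animals, cultures or repeat preparations, p-values reflect the spread among these libraries alone, which may be technical.

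Amino acid carriers set which amino acids enter and leave a cell and its lysosomes. Some are obligatory exchangers, which import one amino acid by releasing another, and some are driven by sodium or protons and accumulate their substrate. The SLC7 light chains work only when joined to an SLC3 heavy chain, which brings them to the plasma membrane. In the mouse follicle, granulosa and cumulus cells take up amino acids and pass them through gap junctions to the oocyte, whose own uptake of several of them is poor. Several carrier genes are known targets of ATF4, the transcription factor of the amino acid response, and Slc7a11 is also a known target of NRF2, the factor of the antioxidant response.

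Total counts were 19079345 to 23157541 per library. Levels are given as CPM, counts relative to the TMM-scaled library total, and, wherever genes are compared with each other, per kilobase of exon (RPKM). Values per library are listed in the order of replicates 1, 2 and 3, and SE is the standard error of a log2 change. Of the 12 granulosa markers, which include Foxl2 and Inha, 11 had enough counts to be tested and 8 were lower in CPC, with a summed level of 7939 to 8800.0 CPM in control and 4629 to 6416 CPM in CPC. Over all 15000 tested genes 19.7% were called lower, the share to set beside each marker count here. Leukocyte markers moved with the exposure too: all 12 that could be tested of 14 were lower in CPC, their summed level was 204 to 346 CPM in control and 14 to 36 CPM in CPC, and the complement gene C1qc had no count in any CPC library. Of the 6 luteal markers 4 of 5 tested were lower, with a sum of 7273 to 12239.5 CPM in control and 1487 to 2874 CPM in CPC, while the 7 oocyte markers summed to at most 3.97 CPM in any library. Theca and stroma markers summed to 894, 509 and 505 CPM in control and 1011, 831 and 290 CPM in CPC. Surface epithelium markers summed to 346, 155 and 171 CPM in control and 361, 90.8 and 91.2 CPM in CPC. Both sums were highest in replicate 1 of each group, and none of the tested markers of these lists was called. Fewer cells of one type and less RNA per cell cannot be told apart in these bulk samples, and the part of these marker changes in the results below was not tested.

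Of the 61 carrier genes 35 had enough counts to be tested. CPC libraries had higher levels of 10 of them (28.6% of those tested) and lower levels of 7 (20%), at a Benjamini-Hochberg adjusted p below 0.05 in edgeR. Over all 15000 tested genes 19.6% were called higher and 19.7% lower. The 10 that rose were Slc1a4, Slc1a5, Slc3a2, Slc6a9, Slc6a12, Slc7a3, Slc7a5, Slc7a11, Slc38a7 and Slc43a3, and the 7 that fell were Slc6a6, Slc6a7, Slc7a6, Slc7a8, Slc36a1, Slc36a2 and Slc38a3. In 13 of the 35 every CPC library lay above every control library and in 10 every CPC library lay below, where the same held for 26.7% and 26.8% of all tested genes. The median log2 change was -0.02 over the 35 and -0.0032 over all tested genes. The count of lower carriers ran from 2 to 7 over the fits that left libraries out. In the same fits 6.88% to 16.8% of all genes were called lower. The count was 4 when control 1, control 2 or CPC 1 was left out (13.3%, 15.6% and 14.1% of all genes lower) and 3 without CPC 3 (16.2%). It was 2 when replicate 1 was left out of both groups (6.88%) and 4 when replicate 3 was (16.3%). By family, 2 of 3 tested SLC1 genes rose, as did the 1 tested SLC3 gene, 3 of 9 SLC7 genes rose and 2 fell, 2 of 8 SLC6 genes rose and 2 fell, 1 of 8 SLC38 genes rose and 1 fell, 2 of 3 SLC36 genes fell and 1 of 3 SLC43 genes rose.

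**Figure D1:**
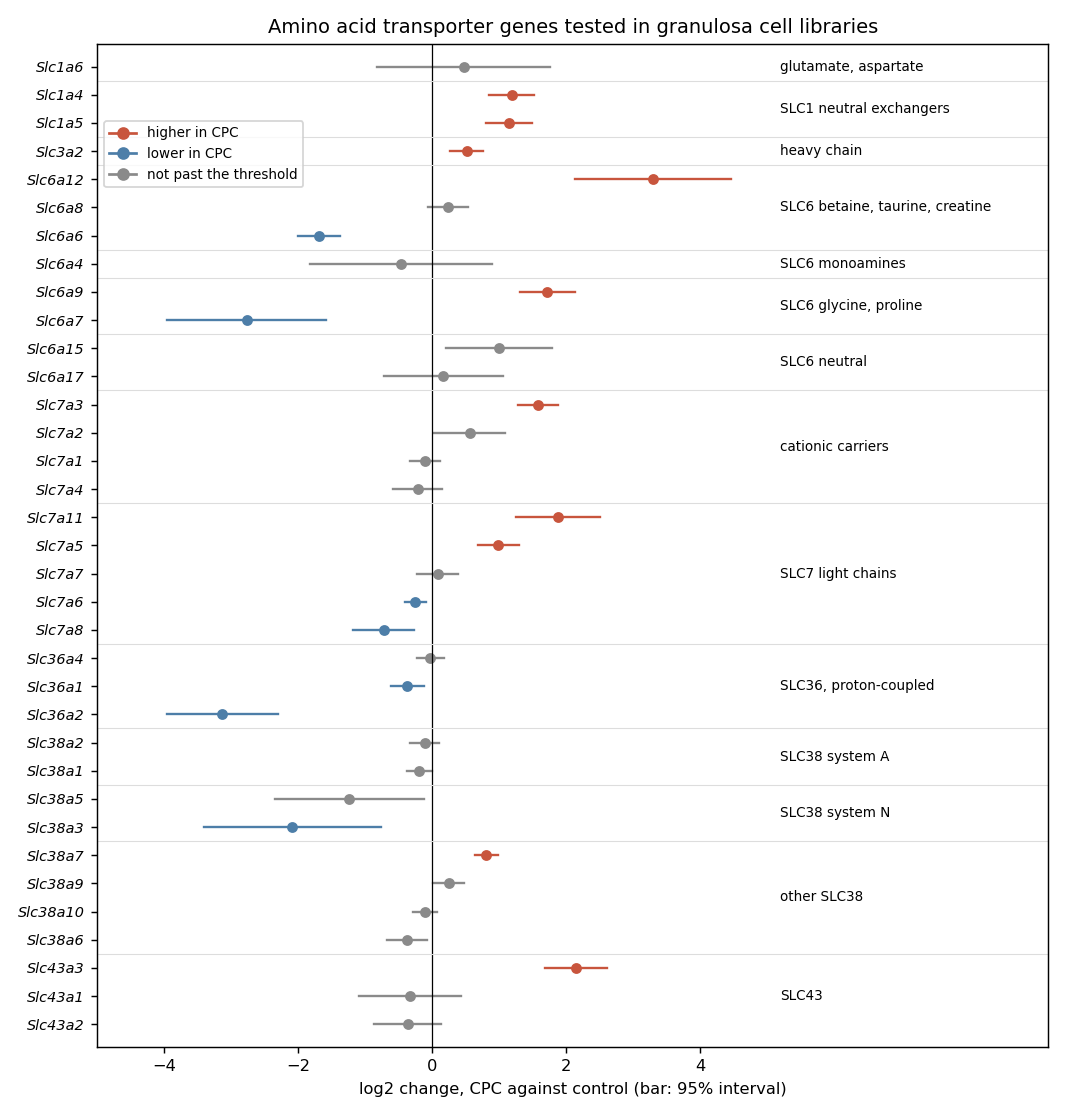
Log2 change (CPC against control) of the 35 tested carrier genes on the horizontal axis, grouped by substrate class, with 95% intervals as bars and colour for the call by edgeR. Changes run from -3.13 for Slc36a2 to 3.30 for Slc6a12.

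Summed over all 61 genes, carrier transcripts made up 4907, 5301 and 4659 CPM in control and 4225, 4012 and 4027 CPM with CPC. The taurine carrier Slc6a6 held more of that sum in control than any other gene. Without it the sums were 3059, 3084 and 3035 CPM in control and 3649, 3419 and 3436 CPM in CPC. With Slc6a6 every CPC library was below every control library, and without it every CPC library was above.

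Transcripts of the heavy chain and of the cystine and leucine exchangers were higher in CPC, while those of LAT2 and of 1 cationic exchanger were lower. Slc3a2, which encodes the heavy chain CD98 (ENSMUSG00000010095; chromosome 19, 8706882 to 8723369), had 437, 376 and 464 CPM in control and, with CPC, 613, 567 and 647 CPM. Every CPC library was above every control library, and the change was 1.43-fold upward (log2 change 0.52 ± 0.11, SE; edgeR adjusted p = 0.00883). Its call was lost without replicate 1 of both groups (edgeR adjusted p = 0.0882). The other heavy chain gene, Slc3a1, which encodes the renal partner rBAT, had at most 6 counts in a library and was not tested.

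Slc7a11 encodes xCT, which imports cystine in exchange for glutamate and so feeds glutathione synthesis (ENSMUSG00000027737; chromosome 3, 49892526 to 50443614). It had 13.6, 16.3 and 24.9 CPM in control and, with CPC, 78, 51.3 and 72.7 CPM. The lowest CPC library was above the highest control library, control 3, and the change was 3.68-fold upward (log2 change 1.88 ± 0.26, SE; edgeR adjusted p = 0.00256). The call held under every alternative tried, with log2 changes of 1.59 to 2.17 (edgeR adjusted p at most 0.0293).

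Slc7a5, which encodes LAT1, the exchanger that brings in leucine and other large neutral amino acids (ENSMUSG00000040010; chromosome 8, 121881150 to 121907694), had 196, 173 and 201 CPM in control and, with CPC, 444, 315 and 373 CPM. It rose 1.99-fold with no overlap between the groups (log2 change 0.99 ± 0.13, SE; edgeR adjusted p = 0.00177). Slc7a8, which encodes LAT2, a close relative of LAT1 with a broader range of neutral substrates (ENSMUSG00000022180; chromosome 14, 54722209 to 54781946), went the other way with 502, 568 and 331 CPM in control and, with CPC, 288, 299 and 260.4 CPM. The groups did not overlap, but control 3 lay nearer to the CPC libraries than to control 1 and 2, and the fall of 1.65-fold (log2 change -0.72 ± 0.19, SE; edgeR adjusted p = 0.0242) lost its call without any single library other than control 3 (the highest edgeR adjusted p was 0.0832). That call was also lost without replicate 1 or replicate 2 of both groups (edgeR adjusted p = 0.159 and 0.122). It held with the replicate number as a block, a pairing that no label gives (edgeR adjusted p = 0.00124 with the replicate block).

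Slc7a6 and Slc7a7 encode the light chains that exchange cationic for neutral amino acids with sodium. Slc7a6 (chromosome 8, 106168857 to 106198706) had 165, 167 and 159 CPM in control and, with CPC, 136, 146 and 131 CPM. That small fall, 1.19-fold (log2 change -0.25 ± 0.07, SE; edgeR adjusted p = 0.0236), was not held under library sizes without scaling factors (edgeR adjusted p = 0.0641), with no filter on low counts (edgeR adjusted p = 0.0537), or without any single library other than control 3 or CPC 2 (the highest edgeR adjusted p was 0.0851). The Slc7a6 call was also lost without replicate 1, 2 or 3 of both groups (edgeR adjusted p = 0.216, 0.07 and 0.0651). It held with the block (edgeR adjusted p = 0.00814 with the replicate block). Slc7a7 had 11.7 ± 0.919 CPM in control against 12.4 ± 1.22 CPM with CPC (SD, n = 3), a log2 change of 0.08 with a 95% interval of -0.22 to 0.38. The remaining light chains, Slc7a9, Slc7a10, Slc7a12 and Slc7a13, had at most 1 count in any library.

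Per kilobase of exon, the order of the light chains was different in the 2 groups. Among the summed RPKM of Slc7a5, Slc7a6, Slc7a7, Slc7a8 and Slc7a11, Slc7a8 held 52.7, 56.8 and 41.3% in control and 26, 32.2 and 26.5% with CPC. Slc7a5 held 23.9, 20.1 and 29.1% in control and 46.5, 39.4 and 44.1% in CPC. The ratio of Slc7a5 to Slc7a8 in RPKM was therefore below 1 in every control library, at 0.454, 0.354 and 0.704, and above 1 in every CPC library, at 1.79, 1.22 and 1.66. Slc7a11 made up 2.41, 2.75 and 5.25% of the light chain RPKM in control and 11.9, 9.3 and 12.5% in CPC, again without overlap. Transcripts of the heavy chain per light chain transcript, Slc3a2 over the sum of the 5 in RPKM, were 0.667, 0.546 and 0.841 in control and 0.803, 0.885 and 0.957 in CPC, with CPC 1 below control 3. With plain CPM in place of RPKM the ratio of Slc7a5 to Slc7a8 was 0.434 on average in control and 1.34 in CPC.

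**Figure D2:**
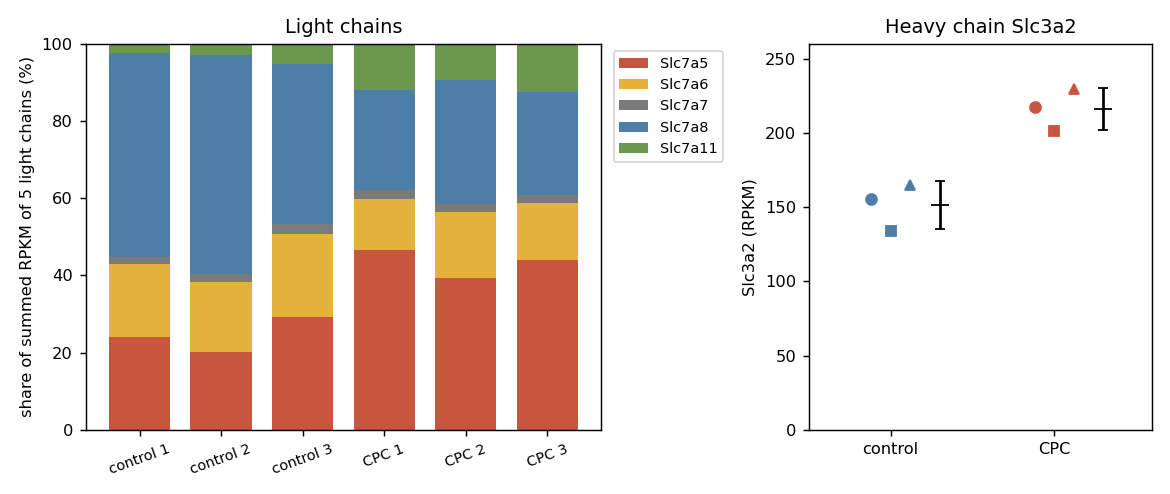
Left, share of each of 5 SLC7 light chains in their summed RPKM (stacked bars, percent) in each library. Right, RPKM of the heavy chain gene Slc3a2 in each library (circle, square and triangle for replicate 1, 2 and 3; black marks give mean and SD, n = 3). Slc7a8 holds the largest share in all 3 control libraries and Slc7a5 in all 3 CPC libraries, and Slc3a2 is higher in each CPC library than in each control library.

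Promoter sequences from RefSeq (GRCm38.p6) were matched by symbol for 43 of the 61 genes, with 64 windows from 250 bases before to 50 after a start. They were searched on both strands for TGATGNAA, the core of the C/EBP-ATF response element that ATF4 binds with a C/EBP partner. It was present in 4 of the 43 genes (9.3%), Slc1a4, Slc6a21, Slc7a7 and Slc7a11, and in 4.51% of the 27025 genes with a window. Slc7a11 carried the motif on both strands, at bases -66 to -59 and -47 to -40, and Slc1a4 carried 1 copy at -4 to 4, where base 1 is the annotated start and there is no base 0. Slc7a7 carried copies at -141 to -134 and -1 to 7 of the start shown here. The 3 sequences below, from 150 bases before to 20 after the start and written 5′ to 3′ on the gene's strand, put the rising Slc7a11 and Slc1a4 beside Slc7a7, which did not pass the test, with the motif in capitals. They lie on the minus strand at chr3:50443594-50443763, chr11:20332694-20332863 and chr14:54417925-54418094.
Slc7a11: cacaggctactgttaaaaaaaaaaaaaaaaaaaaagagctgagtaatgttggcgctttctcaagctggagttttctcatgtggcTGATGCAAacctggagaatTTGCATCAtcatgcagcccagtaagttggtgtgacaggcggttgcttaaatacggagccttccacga
Slc1a4: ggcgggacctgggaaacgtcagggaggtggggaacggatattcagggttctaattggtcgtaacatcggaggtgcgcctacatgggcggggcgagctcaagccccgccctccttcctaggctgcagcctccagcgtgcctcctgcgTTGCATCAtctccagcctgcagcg
Slc7a7: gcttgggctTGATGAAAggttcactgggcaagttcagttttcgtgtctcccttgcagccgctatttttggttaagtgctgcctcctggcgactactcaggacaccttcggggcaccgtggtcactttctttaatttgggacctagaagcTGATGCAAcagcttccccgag
A second motif, TGACNNNGC, the core of the antioxidant response element bound by NRF2 with small Maf proteins, stood in the windows of 9 of the 43 genes (20.9%) and of 14% of all genes. Of those 9, Slc6a9 rose, Slc7a6 and Slc36a1 fell, and Slc7a1, Slc38a2 and Slc43a1 were tested and did not pass. No copy of it was found in the Slc7a11 window. These matches describe letters in a window and are not evidence of binding.

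Both neutral amino acid exchangers of the SLC1 family rose by similar amounts. Slc1a4, which encodes ASCT1, an exchanger of alanine, serine, cysteine and threonine (ENSMUSG00000020142; chromosome 11, 20302180 to 20332713), had 41.2, 37.2 and 53.4 CPM in control and, with CPC, 104, 89.9 and 106 CPM. It rose 2.28-fold (log2 change 1.19 ± 0.14, SE; edgeR adjusted p = 0.00125). Slc1a5, which encodes the glutamine exchanger ASCT2 (ENSMUSG00000001918; chromosome 7, 16781340 to 16798274), had 19.1, 16.7 and 24.8 CPM in control and, with CPC, 45.6, 42.6 and 45.7 CPM and rose 2.21-fold (log2 change 1.14 ± 0.15, SE; edgeR adjusted p = 0.00149). Neither pair of groups overlapped, control 3 was the highest control library for both, and both calls held under every alternative tried (edgeR adjusted p at most 0.0298 and 0.0333).

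The SLC1 glutamate and aspartate carriers were scarcely detected apart from Slc1a6, which encodes EAAT4, a carrier best known from cerebellar Purkinje cells. Slc1a6 had 48.6, 35.2 and 22.7 CPM in control and, with CPC, 58.7, 70.8 and 18.2 CPM, so that the groups overlapped and the difference did not pass (log2 change 0.47 ± 0.53, SE; edgeR adjusted p = 0.517, with a 95% interval of -0.82 to 1.77). Replicate 3 held the lowest value in each group. Slc1a7, the retinal glutamate carrier gene, had no count in control and 6, 3 and 7 counts in CPC 1 to 3, too few for a test. Slc1a1, Slc1a2 and Slc1a3 had at most 15 counts in a library.

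Among the cationic amino acid carriers, which import arginine and lysine without a heavy chain, 1 of 4 tested genes rose. Slc7a3, which encodes CAT3 (ENSMUSG00000031297; chromosome X, 101079210 to 101086020), had 24.7, 35.1 and 29.5 CPM in control and, with CPC, 91.3, 90.00 and 86.8 CPM. The CPC libraries were close together and well above control, a rise of 3.0-fold (log2 change 1.58 ± 0.13, SE; edgeR adjusted p = 3.38e-04), and the call held under every alternative (edgeR adjusted p at most 0.00985). Slc7a1, the widely expressed CAT1 gene and a known target of the amino acid response (ENSMUSG00000041313; chromosome 5, 148327410 to 148399904), had 279, 273 and 294 CPM in control and, with CPC, 286, 269.9 and 229.5 CPM. Those groups overlapped, and the log2 change of -0.11 had a 95% interval of -0.34 to 0.12 (edgeR adjusted p = 0.404). Per kilobase Slc7a1 was above Slc7a3 in control, at 39.3 ± 1.49 against 10.8 ± 1.89 RPKM, and close to it in CPC, at 36.4 ± 4.02 against 32.5 ± 0.834 RPKM (SD, n = 3). Slc7a2, the CAT2 gene, had 6.2 ± 0.558 CPM in control against 9.13 ± 2.58 CPM with CPC, and passed with the replicate number as a block (edgeR adjusted p = 0.0272 with the replicate block) but not in the main comparison (edgeR adjusted p = 0.0882). Slc7a4, a relative with no settled substrate, had 13.1 ± 2.32 CPM in control against 11.3 ± 0.824 CPM with CPC (edgeR adjusted p = 0.308).

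The SLC6 family, sodium- and chloride-coupled carriers of amino acids and their derivatives, held the carrier transcript with the highest RPKM in control, Slc6a6, and had members called in both directions. Slc6a6, which encodes the taurine carrier TauT (ENSMUSG00000030096; chromosome 6, 91684053 to 91759066), had 1848, 2217 and 1624 CPM in control and, with CPC, 576, 593 and 591 CPM. The 3 CPC libraries were nearly equal and far below the lowest control library, control 3, a fall of 3.23-fold (log2 change -1.69 ± 0.13, SE; edgeR adjusted p = 3.38e-04). Slc6a9, which encodes the glycine carrier GLYT1 (ENSMUSG00000028542; chromosome 4, 117834506 to 117875198), had 32, 36.6 and 50.9 CPM in control and, with CPC, 129.8, 122 and 142 CPM and rose 3.29-fold without overlap (log2 change 1.72 ± 0.17, SE; edgeR adjusted p = 7.84e-04). Both calls held under every alternative (edgeR adjusted p at most 0.0138 and 0.0172). In the GENCODE annotation of GRCm38 27.8% of the exon bases of Slc6a9 are shared with Ccdc24 on the opposite strand, and no source states whether counting used the strand. Ccdc24 itself was listed at 0.0534 to 0.466 CPM. Slc6a9 also shares 9.94% of its exon bases with Gm17114 and 0.895% with B4galt2, both on the opposite strand. Gm17114 had at most 0.188 CPM in a library. B4galt2 had 24.7 ± 2.6 CPM in control against 25.6 ± 2.04 CPM with CPC (SD, n = 3).

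At low levels, Slc6a12, which encodes the betaine and GABA carrier BGT1 (chromosome 6, 121343076 to 121365775), had 4, 4 and 3 counts in control and, with CPC, 43, 18 and 55 counts, a rise of 9.83-fold (log2 change 3.30 ± 0.50, SE; edgeR adjusted p = 0.00261) that held under the 15 alternatives in which it could be tested. Its neighbour Slc6a13, 5.34 kb away, had at most 5 counts. Slc6a7, which encodes a proline carrier known from the brain (chromosome 18, 60995380 to 61014222), had 15, 11 and 22 counts in control and, with CPC, 3, 1 and 3 counts, a fall of 6.82-fold (log2 change -2.77 ± 0.51, SE; edgeR adjusted p = 0.00564) that was lost without replicate 1 of both groups (edgeR adjusted p = 0.0595). Slc6a8, the creatine carrier gene, had 152 ± 26.7 CPM in control against 179 ± 3.07 CPM with CPC (SD, n = 3; log2 change 0.24 ± 0.13, SE; edgeR adjusted p = 0.177), with every CPC library above every control library. Slc6a15, which encodes B0AT2, a carrier of branched-chain amino acids and proline, had 7.69, 15.4 and 8.51 CPM in control and, with CPC, 18.1, 28.9 and 16.5 CPM. The groups did not overlap. It did not pass in the main comparison (log2 change 1.0 ± 0.33, SE; edgeR adjusted p = 0.0525) and passed with DESeq2 (adjusted p = 0.00639), with limma-voom (adjusted p = 0.0486), with unscaled library sizes (edgeR adjusted p = 0.0426), without control 2 or replicate 2 of both groups (edgeR adjusted p = 0.0152 and 0.0137) and with the block (edgeR adjusted p = 9.47e-05 with the replicate block). Slc6a4 and Slc6a17, the serotonin carrier and a vesicular neutral amino acid carrier, were at 2.3 and 1.32 CPM in control with overlapping groups (edgeR adjusted p = 0.555 and 0.75).

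The SLC38 carriers did not move as a family. Slc38a2, which encodes SNAT2, the system A carrier that is a textbook target of amino acid starvation (ENSMUSG00000022462; chromosome 15, 96687392 to 96699730), had 412, 473 and 454 CPM in control and, with CPC, 413, 439.8 and 385 CPM. The groups overlapped and the log2 change of -0.11 had a 95% interval of -0.33 to 0.10 (edgeR adjusted p = 0.363). Its neighbour Slc38a1, the other system A gene detected, 44.5 kb away on chromosome 15, had 281 ± 7.39 CPM in control against 246 ± 17.7 CPM with CPC (SD, n = 3; log2 change -0.19 ± 0.08, SE; edgeR adjusted p = 0.0912). Slc38a7, which encodes SNAT7, the exporter of glutamine from lysosomes (ENSMUSG00000036534; chromosome 8, 95835920 to 95853539), had 46.3, 44.3 and 46.1 CPM in control and, with CPC, 80.4, 74.5 and 83.8 CPM and rose 1.75-fold (log2 change 0.80 ± 0.07, SE; edgeR adjusted p = 4.85e-04), with no overlap and a call held under every alternative (edgeR adjusted p at most 0.0201). Slc38a9, the lysosomal arginine sensor of mTORC1, had 25.8 ± 0.977 CPM in control against 30.5 ± 3.03 CPM with CPC and did not pass (edgeR adjusted p = 0.0827), nor did Slc38a6 (edgeR adjusted p = 0.0531, 0.03 with the block) or Slc38a10 (edgeR adjusted p = 0.335).

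System N carriers, which take up glutamine, asparagine and histidine, had lower values in CPC than in control for each replicate number, and 1 of the 2 genes passed the test. Slc38a3, which encodes SNAT3, the carrier through which mouse cumulus cells take up amino acids for the oocyte (ENSMUSG00000010064; chromosome 9, 107650634 to 107669530), had 7.69, 17.5 and 7.43 CPM in control and, with CPC, 1.37, 4.51 and 1.86 CPM. The groups did not overlap and replicate 2 was the highest of each, with a fall of 4.24-fold (log2 change -2.08 ± 0.55, SE; edgeR adjusted p = 0.0254; edgeR adjusted p = 2.28e-05 with the replicate block). Without the block the call was lost when any of control 2, CPC 1 and CPC 3 was left out (the highest edgeR adjusted p was 0.0884) and with no filter on low counts (edgeR adjusted p = 0.0918). It was also lost without replicate 1 or replicate 3 of both groups (edgeR adjusted p = 0.0965 and 0.123). Slc38a5, which encodes SNAT5, had 7.1, 13.4 and 8.42 CPM in control and, with CPC, 2.23, 7.07 and 3.03 CPM, with replicate 2 again the highest of each group. It passed only with the block (edgeR adjusted p = 3.80e-04 with the replicate block), with DESeq2 (adjusted p = 0.0163), with limma-voom (adjusted p = 0.0403) and without CPC 2 or replicate 2 of both groups (edgeR adjusted p = 0.0148 and 0.0207), and not in the main comparison (edgeR adjusted p = 0.0761).

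A pair of proton-coupled SLC36 genes that lie 19.3 kb apart on chromosome 11 fell by very different amounts. Slc36a2, which encodes PAT2, a carrier of glycine, proline and alanine (ENSMUSG00000020264; chromosome 11, 55158470 to 55185077), had 9.98, 4.62 and 9.92 CPM in control and, with CPC, 0.857, 0.853 and 1.07 CPM. It fell 8.76-fold without overlap (log2 change -3.13 ± 0.35, SE; edgeR adjusted p = 9.60e-04), and held under the 15 alternatives in which it could be tested (edgeR adjusted p at most 0.023). Slc36a1, which encodes PAT1, a carrier of small amino acids found on lysosomes (ENSMUSG00000020261; chromosome 11, 55204350 to 55236330), had 37.6, 37.8 and 44.6 CPM in control and, with CPC, 32.9, 28.2 and 31.8 CPM, a fall of 1.29-fold (log2 change -0.37 ± 0.10, SE; edgeR adjusted p = 0.0279). That call was lost with unscaled library sizes (edgeR adjusted p = 0.0548) and when any of control 1, control 3, CPC 2 and CPC 3 was left out (the highest edgeR adjusted p was 0.0848). It was also lost without replicate 1, 2 or 3 of both groups (edgeR adjusted p = 0.097, 0.0964 and 0.0827). With the block the call held (edgeR adjusted p = 0.00587 with the replicate block). Slc36a4 had 49.1 ± 4.04 CPM in control against 48.3 ± 2.4 CPM with CPC (SD, n = 3; log2 change -0.02, 95% interval -0.23 to 0.18; 0.04 with unscaled library sizes).

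In the SLC43 family, Slc43a3 rose and its relatives did not pass. Slc43a3, known as a purine nucleobase carrier despite its place in an amino acid carrier family (ENSMUSG00000027074; chromosome 2, 84936579 to 84958509), had 14.7, 16.5 and 11.6 CPM in control and, with CPC, 69, 48.6 and 72.1 CPM. It rose 4.43-fold, the largest rise among the carriers with at least 5 CPM in a group (log2 change 2.15 ± 0.19, SE; edgeR adjusted p = 5.58e-04), and held the call under every alternative (edgeR adjusted p at most 0.0188). Slc43a1, the LAT3 gene 73 kb away on chromosome 2, had 0.529 ± 0.0814 CPM in control against 0.42 ± 0.0674 CPM with CPC (edgeR adjusted p = 0.489). Slc43a2, the LAT4 gene, had 20.2, 26.3 and 28.2 CPM in control and, with CPC, 16.1, 25.3 and 16.6 CPM, where CPC 2 lay among the control libraries (edgeR adjusted p = 0.207; edgeR adjusted p = 0.0417 with the replicate block).

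**Figure D3:**
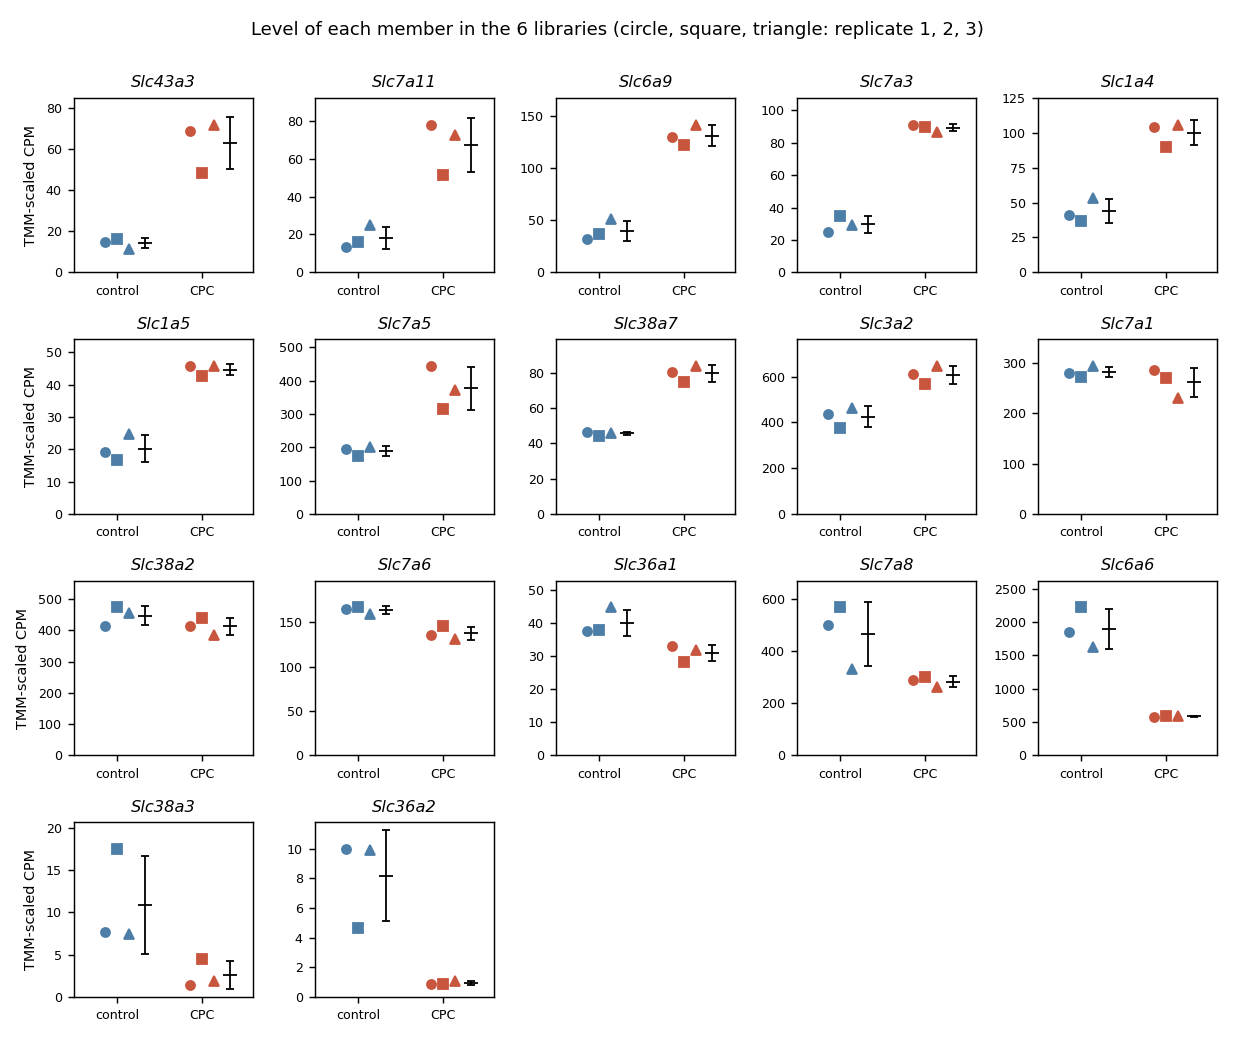
TMM-scaled CPM (vertical axes, each from 0) of the carrier genes given in full, in each library, with circle, square and triangle for replicate 1, 2 and 3 and black marks for mean and SD (n = 3). In every panel except those of Slc7a1 and Slc38a2 the control and CPC points are separate.

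Ranked by RPKM, the control libraries were led by Slc6a6 at 307 ± 48.4 RPKM, Slc3a2 at 151 ± 16, Slc7a8 at 114 ± 29.97, Slc38a2 at 95.8 ± 6.67 and Slc7a5 at 54 ± 4.21 (SD, n = 3). The spreads of Slc3a2 and Slc7a8 met, as did those of Slc7a8 and Slc38a2. In CPC the order was Slc3a2 at 216 ± 14.2 RPKM, Slc7a5 at 107 ± 18.3, Slc6a6 at 94.8 ± 1.5, Slc38a2 at 88.6 ± 5.83, Slc7a8 at 69.2 ± 4.92 and Slc6a9 at 46.3 ± 3.51. There Slc7a5, Slc6a6 and Slc38a2 did not differ beyond their spread. Slc6a9 moved from rank 12 to rank 6, Slc43a3 from 20 to 15 and Slc7a11 from 17 to 13, while Slc36a1 moved from 16 to 21. The next group in control, Slc7a6, Slc7a1, Slc38a1, Slc6a8 and Slc38a10, lay between 38 and 43.6 RPKM. Of these the 4 other than Slc7a6 did not pass the test of CPC against control.

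**Figure D4:**
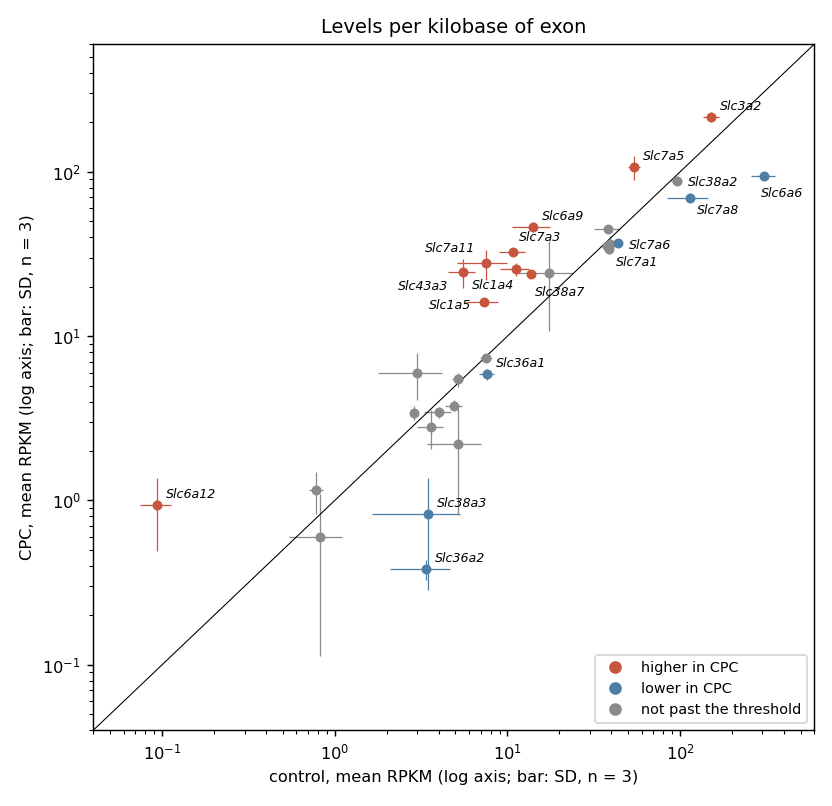
Mean RPKM in CPC against mean RPKM in control (log axes) for the carrier genes above 0.5 RPKM in either group, with SDs over 3 libraries as bars, the line of equal levels, and colour for the call by edgeR. Slc6a6 lies below the line at the right, and Slc43a3, Slc7a11, Slc7a3, Slc6a9, Slc1a4 and Slc1a5 lie above it.

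The 26 carrier genes that could not be tested had at most 63 counts summed over the 6 libraries, and 9 of them had none in any library. A count of 0 allows up to 3 counts, or 0.129 to 0.16 CPM depending on the library, as far as counting error goes. Slc6a2, the noradrenaline carrier gene, had 27, 0 and 0 counts in control and, with CPC, 36, 0 and 0 counts, so it was detected only in replicate 1 of each group. Slc6a14, Slc6a16, Slc36a3 and Slc38a4 had single counts up to 11 in a library.

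Libraries with the same replicate number deviated together, so the comparison was also made with the number as a block. Across all tested genes the deviations of control and CPC libraries from their group means correlated at 0.611, 0.569 and 0.582 for equal numbers and at -0.336 to -0.222 for unequal ones. Deviations from a group mean cancel out within the group, so the negative values follow from the positive ones and are no separate evidence. With the block 12 of the 35 carriers were higher and 10 lower, where 26.5% and 27.9% of all tested genes were. The 5 genes added were Slc6a15 and Slc7a2 upward and Slc38a5, Slc38a6 and Slc43a2 downward, and none of the 17 was lost. For Slc38a3, Slc38a5 and Slc6a15 replicate 2 was the highest of its group in both groups, and each number moved the same way from control to CPC.

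**Figure D5:**
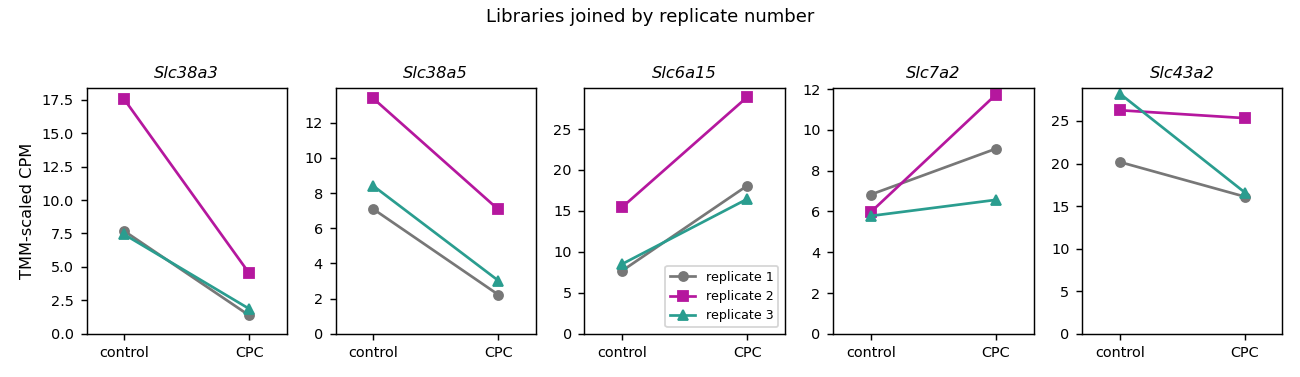
TMM-scaled CPM of 5 carrier genes in control and CPC, with lines joining libraries of the same replicate number. For Slc38a3, Slc38a5 and Slc6a15 the line of replicate 2 lies above the others, and all 3 lines run in the same direction.

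Genes around the carriers were counted in 4 lists chosen by function. The list of transcription factors known to act on carrier genes held 20 genes, among them Keap1, which does not itself encode a transcription factor. Of the 20 genes 10 rose and 2 fell, with a median log2 change of 0.23, against 19.6% of all tested genes higher and 19.7% lower. Atf4 had 342 ± 46.6 CPM in control against 602 ± 23.4 CPM with CPC (SD, n = 3; log2 change 0.82 ± 0.11, SE; edgeR adjusted p = 0.00189). Ddit3, which encodes its partner CHOP, had 18.4, 12.1 and 39.9 CPM in control and, with CPC, 229, 253 and 263 CPM, a rise of 10.6-fold (log2 change 3.40 ± 0.45, SE; edgeR adjusted p = 0.00282). Nfe2l2, the NRF2 gene, had 167 ± 5.03 CPM in control against 238 ± 7.79 CPM with CPC (SD, n = 3; log2 change 0.51 ± 0.07, SE; edgeR adjusted p = 0.00157) and Nfe2l1, its relative NRF1, 585 ± 85.7 CPM in control against 1217 ± 85 CPM with CPC (SD, n = 3; log2 change 1.06 ± 0.13, SE; edgeR adjusted p = 0.00128). Without replicate 1 of both groups 6 of the list rose (6.18% of all genes). Falls called by edgeR were 1 without control 1 and 2 without control 3, where 13.3% and 16.8% of all genes fell. Without any other single library there were 0, where 14.1% to 16.2% of all genes fell. At an unadjusted p under 0.05, 1 to 4 fell over the fits that left libraries out, and DESeq2 on all libraries called 2.

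Among 34 genes of amino acid sensing at the lysosome and mTORC1, 8 rose and 5 fell, where 19.6% and 19.7% of all tested genes did, with a median log2 change of 0.04. Sesn2, a leucine-binding sestrin, rose 1.91-fold, and Castor2, a relative of the arginine sensor CASTOR1, fell 1.76-fold. Rragd, a Rag GTPase, rose 1.56-fold and Fnip2, a partner of folliculin, rose 1.65-fold. When replicate 1 was left out of both groups 3 of these genes rose and 1 fell (6.18% and 6.88% of all genes), and with the block 10 fell (27.9% of all genes). Of 30 tested enzyme genes that use imported amino acids 12 rose and 5 fell (19.6% and 19.7% of all tested genes), with a median log2 change of 0.34 (6 and 2 without replicate 1 of both groups, where 6.18% and 6.88% of all genes were called). Gamt, the last enzyme of creatine synthesis, fell from 27.7 ± 3.68 to 7.29 ± 0.553 CPM (SD, n = 3). Aldh18a1 of proline synthesis rose 1.8-fold, and the transaminase genes Got1 and Gpt2 rose 1.86-fold and 1.76-fold. With DESeq2 8 enzyme genes fell (17% of all genes), as did 8 with the block (27.9%).

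Carriers of amino acids, dipeptides or cystine outside the 7 families had 2 of 10 tested genes higher and 4 lower, against 19.6% and 19.7% of all tested genes. Slc17a8, a vesicular glutamate carrier gene, fell from 1.86 ± 0.0223 to 0.138 ± 0.0405 CPM (SD, n = 3). Slc15a3, a peptide and histidine carrier of lysosomes that is known from macrophages, fell 4.75-fold. Leukocyte, granulosa and luteal markers were lower in the same CPC libraries, and whether these falls are linked was not tested. Slc15a4, a relative of Slc15a3, rose 1.44-fold, and Pqlc2, the lysosomal exporter of cationic amino acids, fell 1.48-fold. Without replicate 1 of both groups 2 of these genes fell, and a rise was no longer called by edgeR for any (6.88% and 6.18% of all genes). At an unadjusted p under 0.05, 1 to 3 rose over the fits that left libraries out.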

How the data were processed

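The deposited files are tables of raw counts per gene, 1 per library, with exon length, symbol, gene type and a GRCm38.p6 location, per the file headers. The submitters' processing notes name Bowtie2, RSEM and hg19, which is a human build and differs from the mouse genes of the files. No source used here states whether counting used the strand. Counts were analysed in R 4.3.3 with edgeR 4.0.16 (filterByExpr, TMM factors, robust quasi-likelihood test), and p-values were adjusted by Benjamini-Hochberg over the 15000 genes tested, with a threshold of 0.05. RPKM used the deposited exon lengths. The 6 libraries held 19079345 to 23157541 counts, and floors of 3 counts cover counting error only. Intervals of changes between the groups come from the quasi-likelihood fit and also include the spread among these libraries. Alternatives were DESeq2 1.42.0, limma-voom (limma 3.58.1), RLE factors, unscaled library sizes, other filters on low counts, a replicate block, and libraries left out. Same-numbered libraries deviated together (correlations 0.611, 0.569 and 0.582), which comes from the data and from no label.

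The members and gene lists were chosen with earlier results of these data known. Values per library are given for members past the threshold with at least 5 CPM in a group and for Slc7a11, Slc3a2, Slc7a5, Slc1a5, Slc38a2 and Slc7a1; others given per library or as counts were chosen after their values were seen. Of each list, up to 4 genes with the smallest adjusted p are named. Slc6a21 was put into its substrate class after the files had been read. The fitting steps were tested on simulated data.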

Additional observations from a re-analysis of the deposited data

How the results depend on the processing

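Over the 16 alternatives, single-gene results kept direction and call in 491 cases, lost a call in 32, gained one in 20 and changed sign in 9, none of them called. The sign changes were Slc6a17 (-0.082 to 0.51 on the log2 scale with single libraries left out, -0.016 without replicate 1 of both groups), Slc7a1 (0.0080 without replicate 3 of both groups), Slc7a7 (-0.046 without replicate 1 of both groups) and Slc36a4 (0.043 with unscaled library sizes, -0.092 to 0.021 with single libraries left out, 0.021 without replicate 2 of both groups). The causes were not tested.

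With single libraries left out, genes higher in CPC numbered 1932 to 2613 and lower 2047 to 2576. With replicate 1 or 2 left out of both groups, 928 or 1736 were higher and 1033 or 1650 lower. With any of these left out, carriers numbered 9 to 11 higher and 2 to 7 lower, carriers outside the 7 families 0 to 2 and 2 to 3, transcription factors 6 to 9 and 0 to 2, sensing genes 3 to 8 and 1 to 5, and enzymes 6 to 11 and 2 to 6. At an unadjusted p under 0.05, 1 to 3 outside carriers were higher and 1 to 4 transcription factors lower over all the fits that left libraries out. DESeq2 on all libraries called 2 of each. The replicate block, which pairs the libraries, gave 12 carriers higher and 10 lower, 10 sensing genes lower and 8 enzymes lower. Over all tested genes the block called 26.5% higher and 27.9% lower. DESeq2 gave 8 enzymes lower (17% of all genes). The filter of 5 CPM left 1 outside carrier higher and 2 lower (22.6% and 22.1% of all genes). Transcription factors lower were 1 with no filter (10.6% of all genes) and 0 in edgeR with unscaled library sizes (2 at an unadjusted p under 0.05, 2 by DESeq2). Unscaled library sizes gave 3586 genes higher (23.9%) and 2460 lower (16.4%).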
